A study of Mus musculus with 18 samples.

Results

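The MIP family CC chemokines described here are *Ccl3* (MIP-1α), *Ccl4* (MIP-1β), *Ccl5* (RANTES), *Ccl6* and *Ccl9*, and their RNA was followed in mouse eosinophils with and without stimulation. The 5 genes were chosen by name and matched through their Ensembl identifiers, which are ENSMUSG00000000982, ENSMUSG00000018930, ENSMUSG00000035042, ENSMUSG00000018927 and ENSMUSG00000019122 in the same order. They are 5 of the 55029 genes that the files list, and all 5 passed the filter on low counts in every comparison. The study set eosinophils stimulated in vitro with agents of Type 1 and Type 2 environments beside unstimulated cells. Eosinophils came from the peritoneal cavity of C57BL/6 mice that carry an *Il5* transgene under a T cell promoter, and cells binding antibodies to Thy1.2 or B220 had been removed. These features are shared by every group, the unstimulated cells included.

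There were 18 libraries. Heat-inactivated *E. coli*, IFN-γ (50 ng/ml), IFN-γ (50 ng/ml) together with heat-inactivated *E. coli*, and IL-4 (100 ng/ml) were each given for 18 h, with 3 libraries per stimulus. Another 6 libraries were of unstimulated cells, for which the labels give no time. By the layout of their files the libraries fall into a pair of sets. The set with *E. coli*, IFN-γ and their combination, here called the Type 1 set, has 12 libraries, among them unstimulated libraries a, b and c, and their counts on genes ranged from 1523808 to 2734041 (median 1975355). The IL-4 set, with IL-4 and its own unstimulated cells, has 6 libraries, among them unstimulated libraries d, e and f, with 3625036 to 6482289 counts (median 5208194). A level of 3 counts, the smallest taken as different from 0, corresponds to 1.10 to 1.97 CPM (counts scaled to a common library total) in the former set and to 0.463 to 0.828 CPM in the latter. This floor covers counting error only. All other CPM values are normalized, with library totals scaled by the trimmed mean of M values (TMM). Stimulated libraries were compared with unstimulated ones of the same set only, apart from 1 alternative given in the closing section. That alternative takes all 6 unstimulated libraries as 1 group. Otherwise no level was compared between the sets, since their counts have different ranges. The labels do not say whether replicates came from different mice, so the p-values given here measure the spread between these libraries.

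CC chemokines are small secreted proteins that guide leukocytes by binding G protein-coupled receptors and that are held on cell surfaces and in the matrix by glycosaminoglycans. *Ccl4* encodes a chemoattractant of monocytes and T cells, *Ccl3* and *Ccl5* encode ligands of CCR1, and CCL5 in addition binds CCR3, the eotaxin receptor by which eosinophils migrate into tissue. *Ccl6* and *Ccl9* encode ligands of CCR1 that are found in rodents and are made by myeloid cells, among them mouse eosinophils.

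Eosinophil markers were present in every library. The summed level of the 11 eosinophil genes of a marker list ranged from 3520 to 6606 CPM over the 18 libraries, with *Alox15* or *Ccr3* the most abundant. It was 4492 to 5947 CPM in unstimulated libraries a to c, 3861 to 4350 CPM with *E. coli* and 3520 to 3952 CPM with both stimuli, which lay lower without overlap, and 4222 to 5006 CPM with IFN-γ. In the IL-4 set it was 5589 to 6606 CPM in d to f and 5461 to 5698 CPM with IL-4. Counts in the Type 1 set have an upper limit of 4096, and *Ccr3* and *Alox15* reached 3576 and 3732 there. Levels of genes near the limit depend on the library total, and unstimulated library b, with the fewest counts of its group, had the highest sum, so the eosinophil sums of this set are not read as changes in these cells. All 11 were above 3 counts in each library of the IL-4 set. In the Type 1 set 8 to 10 of them were, and *Epx*, which encodes a granule protein, was at 0 in *E. coli* library 2, IFN-γ libraries 1 and 3 and IFN-γ + *E. coli* libraries 2 and 3. Markers of other cells were present too. The 12 macrophage genes, none of them at 0 in any library, summed to 2756, 2436 and 2608 CPM in unstimulated libraries a, b and c, and the most abundant was *Lyz2*. With *E. coli* they summed to 1493, 1423 and 2652 CPM, with IFN-γ to 3441, 3218 and 3431 CPM and with both stimuli to 2916, 3492 and 4057 CPM. *E. coli* library 3 was thus far above the other two of its group. In the IL-4 set they summed to 5697, 5415 and 6798 CPM in unstimulated libraries d, e and f and to 4416, 4122 and 5082 CPM with IL-4, where the groups did not overlap. The 8 neutrophil genes summed to 35.5 to 45.0 CPM in unstimulated libraries a to c, 130.1 to 213 CPM with *E. coli*, 67.7 to 79.8 CPM with IFN-γ, 70.8 to 111 CPM with both, 20.7 to 23.2 CPM in unstimulated libraries d, e and f and 41.9 to 63.0 CPM with IL-4. *Cxcr2* or *S100a8* was the most abundant of them, and *Ltf* was at 0 in most libraries. The 7 B cell genes summed to 118 to 218 CPM in unstimulated libraries a to c, 42.0 to 76.5 CPM with *E. coli*, 58.2 to 101 CPM with IFN-γ, 124 to 136 CPM with both, 24.2 to 44.6 CPM in d to f and 60.2 to 73.4 CPM with IL-4. The 8 mast cell and basophil genes summed to 41.2 to 57.75 CPM in a to c, 66.9 to 87.89 CPM with *E. coli*, 43.06 to 59.89 CPM with IFN-γ, 92.75 to 122 CPM with both, 40.96 to 64.43 CPM in d to f and 68.1 to 73.27 CPM with IL-4. Libraries with *E. coli*, with both stimuli and with IL-4 thus lay above the unstimulated ones of their set without overlap. *Gata2* was the most abundant of these genes in every library. It was at 48.4, 34.9 and 46.7 CPM in a to c and 57.5, 69.2 and 56.8 CPM with *E. coli*. With both it was at 57.0, 45.5 and 59.35 CPM. In d to f it was at 56.9, 43.9 and 34.0 CPM, and with IL-4 at 53.3, 65.0 and 52.1 CPM. Taken alone, *Gata2* thus overlapped the unstimulated libraries with both stimuli and with IL-4. *Mcpt8* was at 0 in each library but IL-4 library 2. Dendritic cell genes stayed between 3.80 and 17.9 CPM, T cell genes between 2.07 and 10.1 CPM, and NK and mesothelial genes at or below 2.08 CPM. In such bulk samples, fewer cells of a type and less RNA per cell cannot be told apart.

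The 5 genes lie within 139 kb of chromosome 11 (GRCm38). *Ccl5* (chr11:83525778-83530518), *Ccl9* (chr11:83572919-83578636), *Ccl6* (chr11:83587882-83593087) and *Ccl3* (chr11:83647844-83649355) are on the minus strand, and *Ccl4* (chr11:83662584-83664683) is on the plus strand. No other gene had a transcript at least 95% identical over 200 bases or more to any of the 5, and the closest pair among them, *Ccl6* and *Ccl9*, shared 75.5% over 290 aligned bases. The antisense gene *E230016K23Rik* overlaps *Ccl6* on the opposite strand but shares 0 of its 1795 exon bases.

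**Figure D1:**
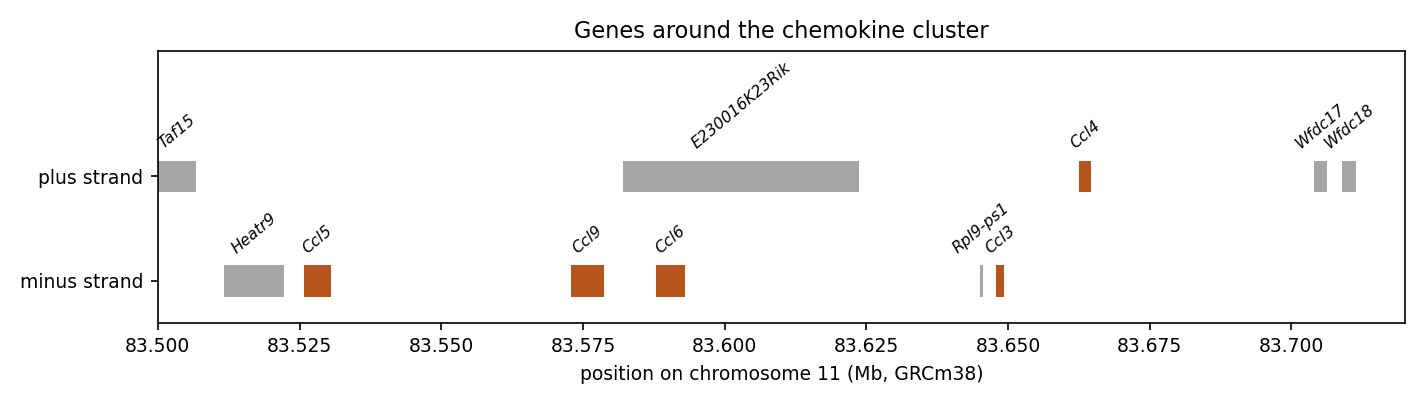
Map of the chemokine cluster on mouse chromosome 11 (GRCm38), with position in megabases on the horizontal axis and protein-coding genes and *E230016K23Rik* drawn as bars from start to end on their strand (members in brown, others in grey). *Ccl5*, *Ccl9*, *Ccl6* and *Ccl3* are on the minus strand and *Ccl4* is on the plus strand, within 139 kb.

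*Ccl3* was the member with the largest change in the Type 1 set. Its normalized level, in CPM, was 54.0, 51.3 and 49.6 in unstimulated libraries a, b and c (51.6 ± 2.25, SD, n = 3). With *E. coli* it was 512, 519 and 624 (552 ± 63.0, n = 3), with IFN-γ 231, 233 and 269 (244 ± 21.7, n = 3), and with both 1543, 1449 and 1684 (1558 ± 118, n = 3). The 4 groups did not overlap, and their order was IFN-γ + *E. coli*, *E. coli*, IFN-γ and unstimulated, from high to low. The mean was 10.7 times the unstimulated mean with *E. coli*, 4.73 times with IFN-γ and 30.2 times with both. Counts in this set have an upper limit, and after a correction for it these folds were 12.7, 4.96 and 45.9. In the quasi-likelihood test of edgeR, with p adjusted by Benjamini-Hochberg over all genes tested and a call at an adjusted p under 0.05, *Ccl3* rose with *E. coli* (log2 fold change 3.41, SE 0.13, edgeR adjusted p = 2.33e-12). Its rise was 2.24 on the log2 scale with IFN-γ (SE 0.13, edgeR adjusted p = 2.68e-10) and 4.91 with both stimuli (SE 0.14, edgeR adjusted p = 1.30e-14). Neighbours in the order differed as well. *Ccl3* was higher with both stimuli than with *E. coli* alone (log2 fold change 1.50, 1.26 to 1.74, edgeR adjusted p = 6.76e-09) and lower with IFN-γ than with *E. coli* (log2 fold change −1.17, −1.42 to −0.93, edgeR adjusted p = 2.72e-07). Ranges after a log2 fold change are 95% confidence intervals.

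*Ccl4* followed the bacteria more than the cytokine. Its normalized level was 144, 105 and 105 CPM in unstimulated libraries a, b and c (118 ± 22.4, SD, n = 3) and 439, 476 and 936 CPM with *E. coli* (617 ± 277, n = 3). With IFN-γ it was 143, 170 and 147 CPM (153 ± 14.4, n = 3), and with both stimuli 714, 898 and 893 CPM (835 ± 105, n = 3). All 6 libraries with *E. coli* lay above the other 6, whereas the IFN-γ libraries overlapped the unstimulated ones and the libraries with both stimuli overlapped those with *E. coli* alone. *E. coli* library 3, at 936 CPM, was above each library with both stimuli. *Ccl4* rose with *E. coli* (log2 fold change 2.37, SE 0.23, edgeR adjusted p = 2.51e-07) and with both stimuli (2.82, SE 0.23, edgeR adjusted p = 9.65e-09). With IFN-γ alone its log2 fold change was 0.37 (−0.11 to 0.85, edgeR adjusted p = 0.240). From high to low the order of means was both, *E. coli*, IFN-γ and unstimulated, and neither the upper nor the lower pair of neighbours passed the test, which for both pairs depended on the processing. For both stimuli against *E. coli* alone the log2 fold change was 0.44 (0.00 to 0.88, edgeR adjusted p = 0.113). It passed the test without *E. coli* library 3 (0.87), with the replicate number as a block (0.49) and without a filter (0.41). For IFN-γ against unstimulated cells it passed from only the 6 libraries compared (0.37) and without a filter (0.40). The middle pair differed, with IFN-γ below *E. coli* by a log2 fold change of −2.00 (−2.47 to −1.54, edgeR adjusted p = 1.30e-06).

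*Ccl5* moved with IFN-γ. In unstimulated libraries a, b and c its normalized level was 535, 453 and 489.8 CPM (493 ± 41.3, SD, n = 3), and with *E. coli* it was 434, 459 and 854 CPM (582 ± 236, n = 3). With IFN-γ it was 915, 809 and 915 CPM (879.8 ± 61.0, n = 3), and with both stimuli 1297, 1441 and 1732 CPM (1490.2 ± 222, n = 3). *E. coli* libraries 1 and 2 lay within or just below the range of the unstimulated ones, and library 3 lay within the range of IFN-γ. The libraries with both stimuli were above all others. *Ccl5* rose with IFN-γ (log2 fold change 0.84, SE 0.19, edgeR adjusted p = 0.00262) and with both stimuli (1.60, SE 0.19, edgeR adjusted p = 1.82e-06), to 1.79 and 3.03 times the unstimulated mean. With *E. coli* alone its log2 fold change was 0.24 (−0.16 to 0.64, edgeR adjusted p = 0.383), and −0.14 without *E. coli* library 3. The order of means was both, IFN-γ, *E. coli* and unstimulated. Both stimuli exceeded IFN-γ alone (log2 fold change 0.76, 0.36 to 1.16, edgeR adjusted p = 0.0125; 0.70 and not called without IFN-γ library 2), and also *E. coli* alone (1.36, 0.95 to 1.76, edgeR adjusted p = 2.10e-05). IFN-γ was called higher than *E. coli* (0.60, 0.20 to 1.00, edgeR adjusted p = 0.0263), although their libraries overlapped. This call was lost without *E. coli* library 1 (0.43) or 2 (0.45), without IFN-γ library 1 (0.58) or 3 (0.57), with library totals (0.45) and after the correction for the limit on counts (0.63).

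*E. coli* library 3 had the highest *Ccl4* and *Ccl5* of its group and also its highest macrophage markers, 2652 CPM against 1493 and 1423 CPM. *Apoe* was the most abundant of them at 825 CPM. The same library was highest for neutrophil (213 against 159.1 and 130.1 CPM) and B cell genes (76.5 against 42.02 and 45.47 CPM). So it was for mast cell and basophil genes (87.89 against 66.9 and 74.23 CPM). Its *Ccl3* level, 624 CPM against 512 and 519 CPM, stood less far apart. Over all genes 30.2%, 31.6% and 49% were called with *E. coli*, IFN-γ and both against unstimulated cells, shares beside which the counts of marker genes stand. As a list, 0 of the 12 macrophage genes rose and 5 fell with *E. coli*, while 3 rose and 2 fell with IFN-γ and also with both stimuli. Against *E. coli* alone, 6 of them were higher and 0 lower with IFN-γ (25.5% of all genes called), and 6 were higher and 1 lower with both (32.8%). Of 3 neutrophil genes tested, 2 were higher and 0 lower with *E. coli*, and 2 were higher and 1 lower with IFN-γ and also with both. Of 5 B cell genes tested, 5 were lower with *E. coli* (median log2 fold change −1.82) and 4 with IFN-γ (−1.255), while the median was −0.43 with both stimuli. Of 3 mast cell and basophil genes tested, 1 rose with *E. coli*, 1 rose and 1 fell with IFN-γ, and 2 rose with both (median log2 fold change 2.65), the group in which *Ccl3*, *Ccl4* and *Ccl5* were highest. Of 8 eosinophil genes tested, 2 rose and 2 fell with *E. coli*, 1 rose and 5 fell with IFN-γ, and 2 rose and 5 fell with both. The part of these cells in the chemokine values was not tested.

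**Figure D2:**
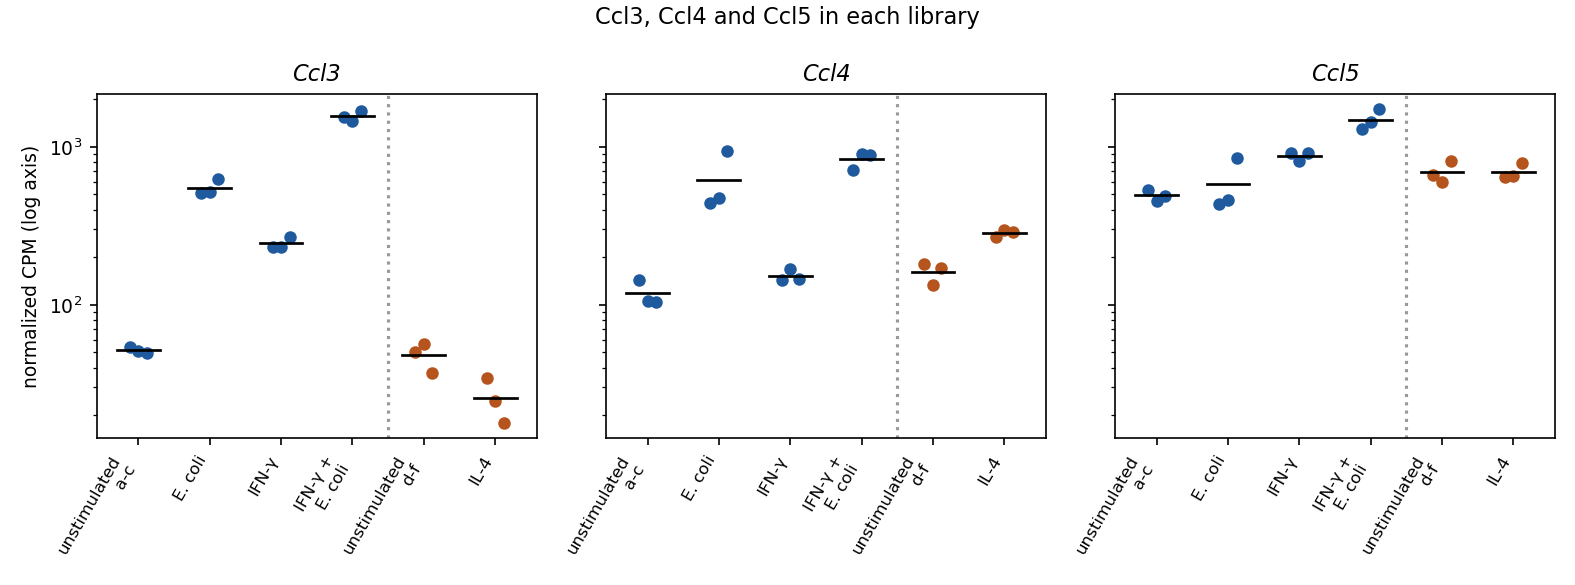
Normalized level of *Ccl3*, *Ccl4* and *Ccl5* in CPM on a log axis, with 6 groups on the horizontal axis, a point for each library and a line at the mean of 3. A dotted line separates the Type 1 set (blue) from the IL-4 set (brown), whose levels are not compared; *Ccl3* ranged from 49.6 to 1684 CPM in the former and from 17.9 to 56.8 CPM in the latter.

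*Ccl6* and *Ccl9* could be read only in part in the Type 1 set, because their counts lay close to an upper limit. No gene in any of these 12 libraries had more than 4095 counts, the highest count per library was 4089 to 4095, and 4096 is the number of distinct sequences of 6 bases. In the IL-4 set the highest count per library was 87377 to 191131. *Ccl6* had 4092, 4074 and 4093 counts in unstimulated libraries a, b and c, 4093, 4093 and 4083 with *E. coli*, 4046, 4018 and 4042 with IFN-γ, and 3833, 3977 and 3984 with both stimuli. All 12 values were thus within 263 counts of 4096, and the libraries with both stimuli were the lowest. *Ccl9* had 3680, 3363 and 3754 counts in a, b and c, 3976, 4051 and 3843 with *E. coli*, 3675, 3721 and 3661 with IFN-γ, and 3399, 3697 and 3601 with both. *E. coli* gave the highest *Ccl9* counts, without overlap with any other group. *Ccl3*, *Ccl4* and *Ccl5* reached at most 2644, 1895 and 2630 counts and so stayed further from the limit.

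Divided by scaled library totals, counts held near a fixed value turn into levels that follow the total. *Ccl6* was at 1525, 2582 and 1690.3 normalized CPM in unstimulated libraries a, b and c, of which b had the fewest counts (1562034), and at 1669.6, 1369 and 2016 CPM with *E. coli*, of which library 2 had the most counts of all 12 (2734041). With IFN-γ it was at 2265, 2059.6 and 2643 CPM, and with both at 2799, 2179 and 2627 CPM. The unstimulated range of *Ccl6* therefore covered much of the range of the other groups. On these deposited counts the log2 fold change of *Ccl6* was −0.20 with *E. coli* (−0.57 to 0.18, edgeR adjusted p = 0.449), 0.27 with IFN-γ (−0.11 to 0.64, edgeR adjusted p = 0.282) and 0.39 with both (0.01 to 0.77, edgeR adjusted p = 0.0794). *Ccl9* was at 1371, 2131 and 1550.3 normalized CPM in a, b and c, 1622, 1354 and 1897 CPM with *E. coli*, 2057, 1907 and 2394 CPM with IFN-γ, and 2482, 2026 and 2375 CPM with both. The groups again overlapped the unstimulated one. Its log2 fold change was −0.05 with *E. coli* (−0.39 to 0.28, edgeR adjusted p = 0.851), 0.33 with IFN-γ (0.00 to 0.67, edgeR adjusted p = 0.124) and 0.45 with both (0.11 to 0.78, edgeR adjusted p = 0.0271). For both genes the order of means was both stimuli, IFN-γ, unstimulated and *E. coli*, and no pair of neighbours differed at the threshold.

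A correction for the limit takes a count as the number of distinct identifiers seen among 4096 and estimates how many molecules would give it. It changed the picture for these genes. After it, *Ccl6* was at 7997, 10457 and 9262 normalized CPM in a, b and c, 9129, 7428 and 8885 with *E. coli*, 7751, 6368 and 8960.1 with IFN-γ, and 6367, 6087 and 7512 with both. The order of means became unstimulated, *E. coli*, IFN-γ and both stimuli, again with no pair of neighbours past the threshold. The libraries with both stimuli no longer overlapped the unstimulated ones, and *Ccl6* was lower there (log2 fold change −0.47, −0.77 to −0.18, edgeR adjusted p = 0.00878), opposite in sign to the deposited counts. *Ccl9* after correction was at 2639, 3442 and 3185 normalized CPM in a, b and c, 4464, 4641 and 4300.3 with *E. coli*, 4003, 3844 and 4641 with IFN-γ, and 4107, 4006 and 4410.3 with both. Every stimulated library was now above every unstimulated one. *Ccl9* was higher with *E. coli* by 0.53 on the log2 scale (0.29 to 0.77, edgeR adjusted p = 0.00158), with IFN-γ by 0.43 (0.19 to 0.67, edgeR adjusted p = 0.00781; 0.33 and not called without unstimulated library a) and with both by 0.43 (0.19 to 0.67, edgeR adjusted p = 0.00424). Near the limit the correction is imprecise. The 4093 counts of *Ccl6* in unstimulated library c correspond to 29569.7 molecules with a 95% range of 25177 to 36036. Against unstimulated cells, the sign thus changed with the correction for *Ccl6* with IFN-γ and with both and for *Ccl9* with *E. coli*. It stayed the same for *Ccl6* with *E. coli*, at −0.12 after correction, and for *Ccl9* with IFN-γ and with both. *Ccl3*, *Ccl4* and *Ccl5* kept the direction of their called changes, with *Ccl3* at 3.66, 2.31 and 5.52 on the log2 scale with *E. coli*, IFN-γ and both.

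**Figure D3:**
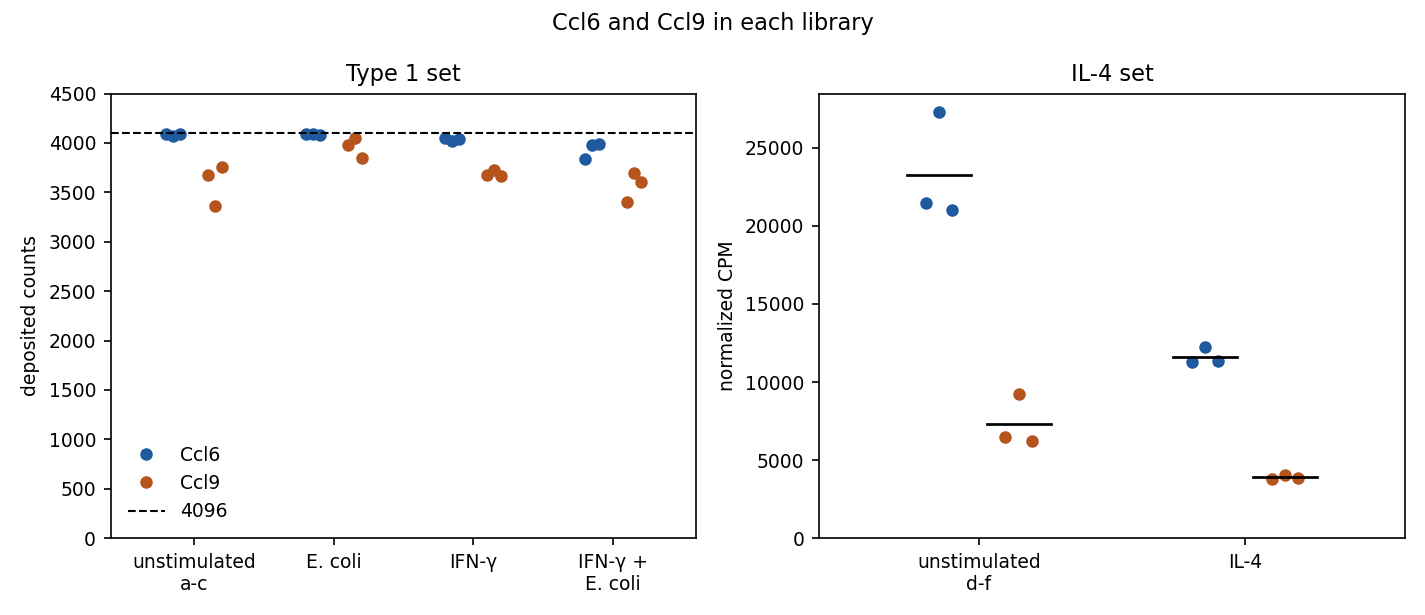
Deposited counts of *Ccl6* and *Ccl9* in the Type 1 set (left, points are libraries, *Ccl6* blue and *Ccl9* brown, dashed line at 4096 counts) and their normalized level in CPM in the IL-4 set (right, points are libraries, lines are means of 3). On the left all counts lie between 3363 and 4093, close to the dashed line; on the right every IL-4 library lies below every unstimulated one for the same gene.

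Over the 5 members, *E. coli* raised 2 (*Ccl3* and *Ccl4*) on the deposited counts, where 30.2% of the 9883 genes tested were called. IFN-γ also raised 2 (*Ccl3* and *Ccl5*), against 31.6% of all genes. With both stimuli 4 were higher, all but *Ccl6*, against 49% of all genes. Against IFN-γ alone, both stimuli raised 3 (*Ccl3*, *Ccl4* and *Ccl5*), where 12.2% of genes were called. Against *E. coli* alone they raised 4, all but *Ccl4*, where 32.8% were called. IFN-γ compared directly with *E. coli* gave 1 higher (*Ccl5*) and 2 lower (*Ccl3* and *Ccl4*), against 25.5% of all genes. These comparisons share libraries, those of the unstimulated cells among them, so their counts are not independent. Among the counts above, the calls for *Ccl6* and *Ccl9* were made on counts near the limit. Those of both genes for both stimuli against *E. coli* alone were lost after the correction, with log2 fold changes of −0.35 and −0.10. On the deposited counts they were also lost with library totals (0.36 and 0.27), without *E. coli* library 1 (0.58 and 0.50) or 2 (0.46 and 0.38) and without library 1 with both (0.52 and 0.44), that of *Ccl9* also without library 3 with both (0.47). The *Ccl9* call for both against unstimulated cells was lost with library totals (0.20), with at least 10 counts in every library (0.39) and from only the 6 libraries compared (0.43). It was lost as well without unstimulated library a (0.32) or c (0.39) or without library 1 (0.41) or 3 (0.43) with both.

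Whether the stimuli together did more or less than the sum of their log2 effects was asked with an interaction term. It was called for 4.62% of all genes and for 1 of the 5 members. Leaving out 1 library moved these 457 calls to between 264 and 559. They numbered 264 without unstimulated library a, and 293 and 265 without *E. coli* libraries 1 and 2. For *Ccl3* the interaction was −0.74 (−1.10 to −0.38, edgeR adjusted p = 0.0161). *E. coli* raised *Ccl3* by 3.41 on the log2 scale without IFN-γ and by 2.67 with it, so the joint level, although the highest of all, was below the product of the separate folds. The highest *Ccl3* counts of the set, 2112 to 2644, were in the group with both stimuli. After correction for the limit the interaction was −0.45 (−0.81 to −0.09, edgeR adjusted p = 0.157) and no longer called, and in 1 fit of all 18 libraries it was −0.74 and not called. Markers of other cells moved in the same test, with 5 of 5 B cell genes called higher (median 2.68), 2 of 12 macrophage genes higher (median 0.77) and 1 of 3 neutrophil genes lower (median −0.70). Their part in the *Ccl3* value was not tested. For *Ccl4* the interaction was 0.07 (−0.58 to 0.72, edgeR adjusted p = 0.945) and for *Ccl5* 0.52 (−0.04 to 1.09, edgeR adjusted p = 0.342). Without *E. coli* library 3, that of *Ccl5* was 0.90 and passed the test. *Ccl6* and *Ccl9* had 0.32 (−0.21 to 0.86, edgeR adjusted p = 0.589) and 0.17 (−0.31 to 0.64, edgeR adjusted p = 0.788), both of which changed sign with the correction.

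IL-4, a Type 2 cytokine, lowered 3 of the 5 members and raised 1, in a comparison where 10.3% of the 10556 genes tested were called. Leaving out 1 library moved these 1089 calls to between 484 and 1404, with 484, 497 and 508 without IL-4 libraries 1, 2 and 3. *Ccl6* was at 21453, 27300.4 and 21035 normalized CPM in unstimulated libraries d, e and f (23263 ± 3503, SD, n = 3) and at 11305, 12216 and 11330.3 CPM with IL-4 (11617 ± 519, n = 3). *Ccl9* was at 6463, 9242 and 6219 CPM in d, e and f (7308 ± 1679, n = 3) and at 3785, 4043 and 3877 CPM with IL-4 (3902 ± 131, n = 3). Neither gene overlapped between the groups, and both means fell to about the same fraction of the unstimulated mean, 0.499 for *Ccl6* and 0.534 for *Ccl9*. Counts of *Ccl6* in this set, 43709 to 164801, were far above the limit of the other set. *Ccl6* fell with IL-4 (log2 fold change −1.002, SE 0.12, edgeR adjusted p = 6.58e-04), and so did *Ccl9* (−0.91, SE 0.15, edgeR adjusted p = 0.00388). Library e, the highest of the unstimulated ones for both genes, stood apart from d and f over all genes, with a mean squared difference per gene of 23.7 and 22 times the counting variance against 7.86 between d and f. Without it the log2 fold changes were −0.87 for *Ccl6* and −0.70 for *Ccl9*, and both remained called.

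*Ccl3* and *Ccl4*, which rose together with *E. coli*, parted with IL-4. *Ccl4* was at 181, 133 and 171 CPM in unstimulated libraries d, e and f (162 ± 25.3, SD, n = 3) and at 268, 298 and 288 CPM with IL-4 (284 ± 15.4, n = 3). It was higher in all 3 IL-4 libraries and rose by 0.81 on the log2 scale (SE 0.14, edgeR adjusted p = 0.00440). *Ccl3* was at 49.99, 56.8 and 36.8 CPM in d, e and f (47.9 ± 10.2, n = 3) and at 34.2, 24.8 and 17.9 CPM with IL-4 (25.6 ± 8.21, n = 3). The groups did not overlap but came close, and the fall, −0.89 on the log2 scale (−1.43 to −0.35, edgeR adjusted p = 0.0423), lay just inside the threshold. It was no longer called without library d (−0.86), IL-4 library 2 (−0.87) or IL-4 library 3 (−0.71), or with library totals without TMM (−0.82). *Ccl5* was at 659.9, 601 and 809 CPM in d, e and f (690.1 ± 107, n = 3) and at 639.8, 654 and 791 CPM with IL-4 (695 ± 83.4, n = 3). The groups lay over each other, with a log2 fold change of 0.01 (−0.30 to 0.32, edgeR adjusted p = 0.975). Of the 12 macrophage genes, 0 were higher, 5 lower and 7 not called in the same comparison. Their median log2 fold change was −0.28 against 0.00 for all genes, of which 10.3% were called. Of the 4 B cell genes tested 3 were higher, as were 1 of 4 neutrophil genes, 1 of 2 dendritic cell genes and 4 of 11 eosinophil genes, and 1 eosinophil gene was lower. The part of these cells in the chemokine values was not tested.

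The response to IL-4 differed from the responses to the other stimuli when each was taken against the unstimulated libraries of its own set. In this test a value is a difference between log2 fold changes, and the sets keep their own unstimulated libraries, which all comparisons within a set share. Against the response to *E. coli*, 4 of the 5 members were lower with IL-4, all but *Ccl5*, where 28.1% of 10671 genes were called. The difference was −4.32 for *Ccl3* (−4.85 to −3.78, edgeR adjusted p = 1.37e-10) and −1.58 for *Ccl4* (−2.20 to −0.96, edgeR adjusted p = 3.71e-04). *Ccl6* and *Ccl9* differed by −0.82 and −0.87, and the *Ccl6* call was lost without unstimulated library a (−0.68) or c (−0.74) or *E. coli* library 3 (−0.67). *Ccl5* differed by −0.25 (−0.80 to 0.31, edgeR adjusted p = 0.533). Against the response to IFN-γ, 4 were lower, all but *Ccl4*, where 27.8% of genes were called. *Ccl3* differed by −3.16 (edgeR adjusted p = 8.82e-09), *Ccl5* by −0.86 (edgeR adjusted p = 0.0194), *Ccl6* by −1.30 and *Ccl9* by −1.27. The *Ccl5* call was lost without unstimulated library f (−0.73) and with library totals (−0.59). For *Ccl4* the difference was 0.41 (−0.22 to 1.04, edgeR adjusted p = 0.339). Against the response to both stimuli all 5 were lower, where 39.2% of genes were called, with −5.86 for *Ccl3*, −2.06 for *Ccl4*, −1.65 for *Ccl5*, −1.45 for *Ccl6* and −1.41 for *Ccl9*. The values for *Ccl6* and *Ccl9* rest on counts near the limit in the Type 1 set. After the correction for it, the differences from the responses to *E. coli*, IFN-γ and both were −0.90, −0.75 and −0.52 for *Ccl6* and −1.46, −1.35 and −1.33 for *Ccl9*, and these 6 calls stood. *Ccl3* then differed by −4.57, −3.21 and −6.40. Of 5 B cell genes, 5, 4 and 3 were higher against the responses to *E. coli*, IFN-γ and both (medians 3.14, 2.49 and 1.63). Of 12 macrophage genes, 2 were higher in each, and 2, 4 and 5 were lower. Of 10 eosinophil genes 3, 5 and 6 were higher and 2 lower in each, and of 4 neutrophil genes 1 was higher in each and 1, 2 and 1 were lower. The part of these cells in the chemokine values was not tested.

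Over the 12 libraries of the Type 1 set, log2 levels of *Ccl3* and *Ccl4* had a Pearson correlation of 0.909, *Ccl3* and *Ccl5* of 0.721, and *Ccl4* and *Ccl5* of 0.56. These values describe libraries that fall into 4 groups and share their scaling, and no p is given. *Ccl6* and *Ccl9* had a correlation of 0.986. The genes most like *Ccl3* were *Pdcd1lg2* (0.989), *Agpat5* (0.987) and *Ptgs2* (0.981), and those most like *Ccl4* were *Il1b* (0.986), *Inhba* (0.979) and *Slamf1* (0.978). *Cstb* (0.982), *Cd40* (0.981) and *Hspa1a* (0.978) were most like *Ccl5*. For *Ccl6* the nearest were *Tmsb4x*, *B2m* and *mt-Atp6* (each 0.998), and for *Ccl9* they were *Pla2g7* (0.997), *Srgn* (0.993) and *Fth1* (0.992). The 6 genes nearest to *Ccl6* and *Ccl9* all had counts of 3696 to 4094, and so share their nearness to the limit.

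Receptors for CC chemokines were measured in the same cells. From a list of 8 receptors and decoys, of which 4 were tested, *Ccr1*, *Ccr3* and *Ccrl2* are described here. *Ackr1* and *Ackr2* were at 0 in every library. Of the 4 tested, 0 rose and 1 fell with *E. coli*, and 1 rose and 0 fell with IFN-γ. With both 1 rose and 1 fell, and with IL-4 0 rose and 1 fell. Of all genes 30.2%, 31.6%, 49% and 10.3% were called in these comparisons. The falls with *E. coli* and with both were of the tested gene not described here. *Ccr1*, which encodes the receptor shared by CCL3, CCL5, CCL6 and CCL9, was called in none of the comparisons with unstimulated cells, with log2 fold changes of 0.13, 0.17 and 0.12 with *E. coli*, IFN-γ and both and −0.12 with IL-4. *Ccr3* was at 1864, 2673 and 1911 CPM in d, e and f and at 1279.7, 1392 and 1233 CPM with IL-4, and was lower there (−0.72, edgeR adjusted p = 0.0117), while its log2 fold changes of −0.13, 0.17 and 0.10 with *E. coli*, IFN-γ and both were not called. In that set its counts were 2258 to 3576, part of the way to the limit of 4096, so changes there can be hidden, and no corrected value was computed. *Ccrl2*, which encodes a chemerin-binding receptor that does not signal, was at 83.5, 85.6 and 93.8 CPM in a, b and c, at 225, 231 and 257 CPM with IFN-γ and at 378, 424 and 501 CPM with both. It rose with IFN-γ (1.44, edgeR adjusted p = 4.49e-06) and with both stimuli (2.31, edgeR adjusted p = 3.90e-09), and was not called with *E. coli* (−0.08) or IL-4 (0.07).

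Genes of signalling downstream of these receptors were called in both directions in the Type 1 set. Of 9 tested, 1 rose and 3 fell with *E. coli*, 1 rose and 2 fell with IFN-γ, and 2 rose and 5 fell with both, with median log2 fold changes of −0.15, −0.21 and −0.33 against −0.02, −0.03 and −0.04 for all genes. Of all genes, 30.2%, 31.6% and 49% were called in these comparisons and 10.3% with IL-4, and neither this list nor the following ones were tested as a whole. *Rgs2*, which encodes a regulator that shortens G protein signals, had log2 fold changes of −1.005, −0.56 and −1.57 in the same order, all called, and rose with IL-4 (0.74, edgeR adjusted p = 0.0302), the only call among 10 tested there. Its counts reached 3445 in unstimulated library a, so its falls in the Type 1 set may be understated. *Plcb2*, a phospholipase gene, had −0.65, −0.74 and −1.82 with *E. coli*, IFN-γ and both, while *Arrb1*, which encodes a β-arrestin, rose by 0.57, 0.85 and 1.095. Among genes for storage, presentation and processing of chemokines, *Sdc4*, which encodes a heparan sulfate proteoglycan, rose with *E. coli* (1.73), with both (2.33) and with IL-4 (1.45), and its 0.91 with IFN-γ was not called. *Mmp9*, a matrix protease gene, rose with IFN-γ (0.78), fell with IL-4 (−2.37, edgeR adjusted p = 1.09e-04) and was not called with *E. coli* (−0.21) or both (0.18). Of this list 1 of 4 tested genes rose with *E. coli* and 2 of 4 with IFN-γ and with both, and none fell; with IL-4, 1 of 5 rose and 2 fell. Of the calls with both stimuli, that of *Srgn* (0.48) rests on counts of 3889 to 4093, close to the limit.

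Regulators of chemokine transcription and mRNA decay formed another list, of which all 17 genes were tested. Of these 7 rose and 5 fell with *E. coli*, 9 rose and 1 fell with IFN-γ, 12 rose and 0 fell with both, and 6 rose and 0 fell with IL-4. Median log2 fold changes were 0.08, 0.36, 1.09 and −0.01, against −0.02, −0.03, −0.04 and 0.00 for all genes. *Nfkbiz* and *Nfkbia*, both induced by NF-κB in many cells, rose with both stimuli (3.07 and 1.24), *E. coli* alone (2.35 and 0.91) and IFN-γ alone (0.85 and 0.36). With IL-4 *Nfkbia* rose (1.02), and *Nfkbiz* was not called (−0.01). *Irf1*, a target of interferon signalling, fell with *E. coli* (−0.76) and rose with IFN-γ (2.08), with both (2.04) and with IL-4 (0.97). *Zc3h12a*, which encodes an RNase that degrades inflammatory mRNAs, rose with *E. coli* (1.565, edgeR adjusted p = 3.90e-07) and with both stimuli (1.65, edgeR adjusted p = 9.04e-08), and with IFN-γ alone its log2 fold change was 0.28 (−0.08 to 0.65, edgeR adjusted p = 0.234). With IL-4 it was 0.31 and not called. Of 14 other CC chemokine genes, 7 were tested in the Type 1 set and 8 in the IL-4 set. With *E. coli* 2 rose and 2 fell, with IFN-γ 1 rose and 3 fell, with both 3 rose and 1 fell, and with IL-4 7 rose and 0 fell. Their median log2 fold changes were −0.50, −0.18, 0.87 and 1.51 in that order, beside members' medians of 0.24, 0.37, 1.60 and −0.89. In the Type 1 set the members' medians take in *Ccl6* and *Ccl9* on deposited counts near the limit, without the correction.

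Genes beside the cluster were few among those expressed. Of 25 other genes within 200 kb of it 5 passed the filter, and *Ap2b1* and *Wfdc17* rose with *E. coli*, IFN-γ and both stimuli. *Wfdc17*, which encodes a small secreted protein, was at 203, 160.3 and 177 CPM in unstimulated libraries a, b and c and at 392, 586 and 925 CPM with both (log2 fold change 1.81, edgeR adjusted p = 3.53e-06). Like *Ccl3*, *Ccl6* and *Ccl9* it fell with IL-4 (−0.80, edgeR adjusted p = 0.0237), the only call among the 5 neighbours there. The median over the 5 was 0.35, 0.58 and 0.60 in the Type 1 set and −0.30 with IL-4.

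Promoter sequences are given for the members that a table of RefSeq promoters holds (GRCm38.p6), which are 3 of the 5, to show the letters around the start of genes that moved together with IL-4. Entries for *Ccl4* and *Ccl5* are missing. Each sequence runs 5′ to 3′ on the minus strand, from 250 bases before to 50 after the start that the table uses, and covers chr11:83649329-83649628 for *Ccl3*, chr11:83593038-83593337 for *Ccl6* and chr11:83578587-83578886 for *Ccl9*. That start is the upper coordinate of the gene for *Ccl6* and *Ccl9*, whereas for *Ccl3* it lies further upstream. Capitals mark matches to the motifs searched on both strands.
Ccl3: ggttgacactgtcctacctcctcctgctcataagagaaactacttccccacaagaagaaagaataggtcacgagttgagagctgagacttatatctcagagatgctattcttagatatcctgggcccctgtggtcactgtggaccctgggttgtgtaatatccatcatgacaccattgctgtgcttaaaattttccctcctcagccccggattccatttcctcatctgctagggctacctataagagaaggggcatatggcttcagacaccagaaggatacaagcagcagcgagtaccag
Ccl6: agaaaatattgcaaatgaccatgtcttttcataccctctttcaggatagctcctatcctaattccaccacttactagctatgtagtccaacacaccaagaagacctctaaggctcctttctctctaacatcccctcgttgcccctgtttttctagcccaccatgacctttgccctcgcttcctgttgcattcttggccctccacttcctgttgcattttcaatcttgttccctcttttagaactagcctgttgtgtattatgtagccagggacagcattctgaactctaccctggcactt
Ccl9: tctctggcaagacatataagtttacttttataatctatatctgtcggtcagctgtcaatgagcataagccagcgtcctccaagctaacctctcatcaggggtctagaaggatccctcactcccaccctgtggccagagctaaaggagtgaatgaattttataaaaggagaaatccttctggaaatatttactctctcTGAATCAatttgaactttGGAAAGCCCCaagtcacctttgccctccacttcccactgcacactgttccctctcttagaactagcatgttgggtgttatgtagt
The motifs were the NF-κB (kappa B) consensus, the interferon-γ activated sequence TTCNNNGAA, the core of the interferon-stimulated response element GAAANNGAAA, a STAT6 type site TTCNNNNGAA, and the AP-1 site TGANTCA. They occur in 4.51%, 8.3%, 3.44%, 6.95% and 7.81% of all 32851 promoters of the table, in that order. The window of *Ccl9* holds TGAATCA at bases 198 to 204, and GGAAAGCCCC at bases 216 to 225, which matches the kappa B consensus on the opposite strand. The windows of *Ccl3* and *Ccl6* hold no match to these letters. The windows of *Ccl6* and *Ccl9* align over 74 positions with 78.4% identity (bases 192 to 265 of *Ccl6* and 233 to 299 of *Ccl9*). Whether any of these letters bear on the levels was not tested.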

How the data were processed

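The authors deposited whole counts per Ensembl gene for each of the 18 libraries, without normalization, and the submitters' notes name CEL-Seq libraries, GRCm38, fastp 0.20.1, STAR 2.7.2a, TopHat2 2.1.0 and HTSeq 0.6.1 without assigning them to libraries. Whether molecular identifiers were collapsed is not stated. Gene names and positions came from GENCODE M21, which matched 98.4% and 99.9% of the genes in the Type 1 and IL-4 sets. The 5 last entries of each file of the former set name no gene and were left out.

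In R 4.3.3, edgeR 4.0.16 kept genes by filterByExpr, scaled libraries by TMM on the genes kept, and compared groups by its quasi-likelihood test with Benjamini-Hochberg adjustment over all genes tested, at an adjusted p under 0.05 and with no fold threshold. The 12 libraries and the 6 libraries were fitted separately, and all 18 in 1 fit for the differences between responses. SE and 95% intervals were derived from the F statistic and are approximate. The filter was set before TMM only after results with TMM taken from all genes listed had been seen, and the closing section gives both. The steps were tested on simulated data. Likeness used log2 CPM with a prior count of 2. Figures were drawn with Python 3.11.15 and matplotlib 3.10.9.

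Named genes are the 5 members, some genes of the receptor list, and called genes of clear role from the other fixed lists. Also named are neighbours within 200 kb that were called, and the 3 genes most like each member. Members, lists and markers were chosen with earlier results of these data known. Alternatives were DESeq2 1.42.0 (size factors and Wald test), library totals without TMM, scaling without the 50 highest genes, no filter, a minimum of 10 counts, only the 6 libraries compared, all 18 libraries in 1 fit, all 6 unstimulated libraries as 1 group, a replicate block, leaving out each library, a correction for the limit of 4096 counts, and TMM from all genes listed. The last, and the leave-one-out on corrected counts, were chosen after seeing the data.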

Additional observations from a re-analysis of the deposited data

Results flagged for a closer look

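*Ccl3* stood out by a test of the difference itself between the effect of *E. coli* in the presence of IFN-γ and its effect in the absence of IFN-γ. The interaction on the log2 scale was −0.74 (−1.10 to −0.38, edgeR adjusted p = 0.0161), with *E. coli* raising *Ccl3* by 2.67 in the presence of IFN-γ and by 3.41 in its absence. It was −0.45 after correction for the limit on counts and −0.74 in a fit of all 18 libraries, and passed the test in neither. In the same test 5 of 5 B cell genes (median 2.68) and 2 of 12 macrophage genes (median 0.77) were called higher. Of 3 neutrophil genes 1 was called lower (median −0.70). The part of these cells was not tested. Over all genes 4.62% were called, 457 genes, which ranged from 264 to 559 when 1 library was left out. Groups held 3 libraries each, and groups of 3 were not tested for single samples far from the others.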

How the results depend on the processing

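Of 55 results for the members, 26 kept their direction and their side of the threshold under each of the 12 alternatives that was run for them, 28 when the correction for the limit on counts was set aside, and 31 when the pooling of all unstimulated libraries was set aside as well. The rises of *Ccl3* with *E. coli*, IFN-γ and both, and of *Ccl4* with *E. coli* and both, were among those kept under all that were run for them. The replicate block was run only for comparisons between stimuli and the interaction, the pooling of unstimulated libraries only for comparisons with unstimulated cells, the 6 libraries compared only within the Type 1 set without the interaction, the fit of 18 libraries for all but the differences between responses, which already use it, and the correction for all but IL-4 against unstimulated cells. Where a value changed, the cause was not tested.

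With the correction for the limit on counts, *Ccl6* changed sign to −0.26 (IFN-γ), −0.47 (both stimuli), −0.21 (both against IFN-γ), −0.35 (both against *E. coli*), −0.14 (IFN-γ against *E. coli*) and −0.086 (interaction). *Ccl9* changed sign to 0.53 (*E. coli*), −0.10 (both against *E. coli*), −0.10 (IFN-γ against *E. coli*) and −0.53 (interaction), and its 0.43 with IFN-γ passed the test. The calls for the *Ccl3* interaction (−0.45) and for *Ccl5* in IFN-γ against *E. coli* (0.63) were lost.

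TMM from all genes listed, the order used at first, moved the members' log2 fold changes by at most 0.0706 and changed 0 of their calls; only *Ccl5* with IL-4, uncalled, turned to −0.014. On corrected counts it changed 2 calls, *Ccl6* for both against *E. coli* (−0.39) and the *Ccl9* interaction (−0.57), which now passed, and turned the uncalled *Ccl4* interaction (−0.016) and *Ccl9* for both against IFN-γ (−0.022). The share of called genes that were higher moved from 55.8% to 44% for the interaction (215 higher, 274 lower).

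Library totals without TMM shifted the median of all genes by −0.18 (IFN-γ), −0.25 (both), −0.23 (both against *E. coli*), −0.15 (IFN-γ against *E. coli*), and by 0.10, 0.27 and 0.37 in the comparisons of the IL-4 response with those to *E. coli*, IFN-γ and both. There, calls were lost for *Ccl3* with IL-4 (−0.82), *Ccl5* in IFN-γ against *E. coli* (0.45) and in the IL-4 against the IFN-γ response (−0.59), *Ccl6* for both against *E. coli* (0.36), and *Ccl9* for both against *E. coli* (0.27) and for both (0.20). Relative to the median these were −0.88, 0.63, −0.89, 0.61, 0.52 and 0.50. The share of called genes that were higher fell to 28.4% (970 higher, 2448 lower) with IFN-γ, 29.5% (1536 higher, 3676 lower) with both, 35.2% (443 and 815) for both against IFN-γ, 27.7% (1097 and 2859) for both against *E. coli* and 35.4% (1062 and 1937) for IFN-γ against *E. coli*, from 49.4%, 48.7%, 51.1%, 53.2% and 55.2%. For the IL-4 response against those to IFN-γ and both it rose to 71.1% (2252 and 916) and 71.7% (3177 and 1252), from 47% and 47.2%.

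Without a filter, calls were gained for *Ccl4* with IFN-γ (0.40) and both against *E. coli* (0.41), *Ccl6* with both (0.39) and IFN-γ against *E. coli* (0.45), and *Ccl9* with IFN-γ (0.36) and IFN-γ against *E. coli* (0.37), and *Ccl5* with IL-4 was −0.014. By the DESeq2 Wald test the latter was −0.0079 and with DESeq2 size factors −0.00074. With at least 10 counts in every library, *Ccl9* with both (0.39) was lost. From only the 6 libraries compared it was lost too (0.43), and *Ccl4* with IFN-γ (0.37), *Ccl6* (0.47) and *Ccl9* (0.39) in IFN-γ against *E. coli* were gained. In 1 fit of 18 libraries the *Ccl3* interaction (−0.74) was lost and *Ccl6* with both (0.46) gained.

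Taking all 6 unstimulated libraries as 1 group, across sets whose counts differ in range, turned *Ccl4* with IFN-γ (−0.087), *Ccl5* with *E. coli* (−0.26), *Ccl6* with IFN-γ (−2.79) and both (−2.64), and *Ccl9* with IFN-γ (−1.39) and both (−1.25). It ended the calls for *Ccl5* with IFN-γ (0.35), *Ccl6* with IL-4 (−0.078) and *Ccl9* with IL-4 (−0.12) and with both, and added *Ccl6* (−3.27) and *Ccl9* (−1.79) with *E. coli* and *Ccl6* with IFN-γ and with both. Genes called with IL-4 numbered 1662 there, 1892 in the fit of 18 libraries and 1634 without a filter, against 1089.

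Replicate numbers were shared between stimuli only. Correlations of same-numbered libraries after removal of group means ranged from −0.045 to 0.33, 4 of 9 pairs were over 0.1, and 4 of 9 libraries correlated best with their own number. With the replicate number as a block, *Ccl4* for both against *E. coli* (0.49), and *Ccl6* (0.47) and *Ccl9* (0.39) for IFN-γ against *E. coli*, passed the test.

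Leaving out each library in turn changed a call or a sign as follows, with the lowest and highest value of each result. Libraries are named by group and number, or by letter for unstimulated ones, and "the combination" is IFN-γ + *E. coli*. *Ccl3* with IL-4 ranged from −1.16 to −0.71 and was lost without d (−0.86), IL-4 2 (−0.87) or IL-4 3 (−0.71). *Ccl4* for both against *E. coli* ranged from 0.25 to 0.87 (0.17 to 0.93 on corrected counts) and was gained without *E. coli* 3, the highest value. The *Ccl4* interaction, uncalled throughout, ranged from −0.12 to 0.50 (−0.22 to 0.54 corrected) and turned without a (−0.10), *E. coli* 1 (−0.12) or 2 (−0.087), or the combination's 2 (−0.0021) or 3 (−0.0019). Corrected, it turned without a (−0.17), *E. coli* 1 (−0.22) or 2 (−0.16), IFN-γ 1 (−0.033) or 3 (−0.014), or the combination's 2 (−0.074) or 3 (−0.031).

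*Ccl5* with *E. coli* ranged from −0.14 to 0.41 (−0.14 to 0.52 corrected), its interaction from 0.35 to 0.90 (0.52 to 1.18) and the IL-4 against the *E. coli* response from −0.42 to 0.14; the first turned, the second was gained and the third turned without *E. coli* 3. *Ccl5* for both against IFN-γ ranged from 0.63 to 0.85 and was lost without IFN-γ 2 (0.70). For IFN-γ against *E. coli* it ranged from 0.43 to 0.98 and was lost without *E. coli* 1 (0.43) or 2 (0.45) or IFN-γ 1 (0.58) or 3 (0.57); corrected, from 0.42 to 1.08, it was gained without *E. coli* 3 (1.08) or the combination's 1 or 3 (0.63 each). With IL-4 it ranged from −0.10 to 0.14, below 0 without d (−0.022), e (−0.082) or IL-4 3 (−0.10), and in the IL-4 against the IFN-γ response from −0.96 to −0.73, lost without f (−0.73).

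*Ccl6* with *E. coli* ranged from −0.35 to 0.083 and turned without b; with IFN-γ it ranged from 0.12 to 0.55, gained without b; with both it ranged from 0.25 to 0.67, gained without b (0.67) or the combination's 2 (0.51). For both against *E. coli* it ranged from 0.46 to 0.74 and was lost without *E. coli* 1 (0.58) or 2 (0.46) or the combination's 1 (0.52); corrected, from −0.45 to −0.29, it was gained without *E. coli* 2 (−0.44), IFN-γ 2 or 3 (−0.35 each) or the combination's 3 (−0.45). For IFN-γ against *E. coli* it ranged from 0.33 to 0.61, gained without b (0.47) or *E. coli* 3 (0.61). In the IL-4 against the *E. coli* response it ranged from −1.08 to −0.67 and was lost without a (−0.68), c (−0.74) or *E. coli* 3 (−0.67). Its corrected interaction ranged from −0.21 to 0.038, above 0 without a (0.0083) or IFN-γ 3.

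*Ccl9* with *E. coli* ranged from −0.18 to 0.17 and turned without b (0.17) or *E. coli* 2 (0.064); with IFN-γ it ranged from 0.20 to 0.56, gained without b, and corrected from 0.33 to 0.52, lost without a. With both it ranged from 0.32 to 0.67 and was lost without a (0.32), c (0.39) or the combination's 1 (0.41) or 3 (0.43). For both against *E. coli* it ranged from 0.38 to 0.62, lost without *E. coli* 1 (0.50) or 2 (0.38) or the combination's 1 (0.44) or 3 (0.47), and for IFN-γ against *E. coli* from 0.27 to 0.51, gained without b (0.39) or *E. coli* 3 (0.51). Its interaction ranged from −0.060 to 0.29, below 0 without b; corrected, from −0.61 to −0.43, gained without b. Corrected, both against IFN-γ ranged from −0.050 to 0.090, below 0 without IFN-γ 1 (−0.023) or 2 (−0.050) or the combination's 3 (−0.037).

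Genes called numbered 484 to 1404 with IL-4 (484, 497 and 508 without IL-4 1, 2 and 3), 736 to 1233 for both against IFN-γ (736 without IFN-γ 1, 782 without the combination's 2; corrected 773 to 1308, with 773 and 823), and 264 to 559 for the interaction (264 without a, 293 and 265 without *E. coli* 1 and 2; corrected 286 to 633, with 295 without a, 313 and 286 without *E. coli* 1 and 2, and 335 without the combination's 2).

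Depth did not limit the members, whose lowest count was 81 in the Type 1 set and 69 in the IL-4 set, against a floor of 3; the limit at 4096 counts left *Ccl6* and *Ccl9* readable only in part, and the correction for it also ended calls for *Ccl3* and *Ccl5* and moved the fold of *Ccl3* with both from 30.2 to 45.9.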
